A study of Mus musculus with 4 samples.

Results

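The 8 genes described here make nitric oxide or supply what its synthesis needs. They are the inducible nitric oxide synthase Nos2, the tetrahydrobiopterin genes Gch1, Pts, Spr and Qdpr, and the arginine genes Slc7a2, Ass1 and Asl. They were taken by symbol from the probe sets that name only 1 gene, which gave 14 of 45101 probe sets and 8 of 18193 genes. All 8 were found, and 6 of them had a value above the floor, the 50th percentile of all values, on at least 1 array. Nos2 and Ass1 had none, but a brighter probe set that names Ass1 together with another gene lay above it.

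Nitric oxide synthases turn arginine into citrulline and nitric oxide, and they need tetrahydrobiopterin as a cofactor. GTP cyclohydrolase, encoded by Gch1, opens the synthesis of tetrahydrobiopterin and limits its rate. Pts encodes pyruvoyltetrahydropterin synthase, the next enzyme, Spr sepiapterin reductase, which finishes the synthesis, and Qdpr dihydropteridine reductase, which restores the spent cofactor. Slc7a2 encodes a cationic amino acid transporter that brings arginine into the cell. Ass1 (argininosuccinate synthase) and Asl (argininosuccinate lyase) rebuild arginine from citrulline. Nos2, Gch1 and Slc7a2 are known as genes that inflammatory cytokines induce in many cell types, fibroblasts among them.

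The study used embryonic fibroblasts (MEFs), the mixed mesenchymal cells that grow from a dissociated embryo, of C57BL/6 mice. FAN +/+ cells were wild type, and FAN -/- cells lacked FAN, an adaptor protein of the TNF receptor that is encoded by Nsmaf. Untreated cells of both genotypes spent 24 h in medium with 0% serum, and TNF-treated cells spent 8 h without serum and then 16 h with 50 ng/ml of tumour necrosis factor (TNF), still without serum. Each of the 4 conditions was measured on 1 Affymetrix whole-genome mouse array, so all 4 share the serum-free medium and none has a replicate. The labels do not say how many embryos or cell preparations stand behind an array, or how FAN was deleted.

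The 4 arrays had median log2 values of 6.21 to 6.3, and 49.2% to 50.5% of their probe sets lay above the floor, which is the 50th percentile of all values (log2 6.27, or 77.0 signal units). Conditions follow the titles. The genotype entry of 2 samples contradicts its title: it calls the TNF-treated FAN +/+ array a knockout and the untreated FAN -/- array a wild type. Nsmaf had log2 values of 8.95 and 8.55 on the arrays titled FAN +/+ and 7.91 and 7.48 on those titled FAN -/-, lower by titled genotype (-1.06 ± 0.11 log2, SE, limma adjusted p = 0.019). That is 2.07-fold lower untreated and 2.10-fold lower with TNF, and Nsmaf stayed above the floor on every array. Of all genes fitted 3.67% fell likewise, and the Nsmaf call was lost with the genotype term alone (limma adjusted p = 0.217). The fibroblast markers Col1a1, Col1a2, Vim, Pdgfrb, Thy1, Fn1, Dcn and Lum, 8 of 8, lay above the floor on every array, although Lum and Dcn fell in FAN -/- cells and Thy1 fell with TNF (-0.82 ± 0.12 log2, SE, limma adjusted p = 0.0498). Lum was at 12.75 and 13.42 in FAN +/+ and at 8.78 and 7.45 in FAN -/- cells.

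Differences between single arrays are given as sizes with no p-value, as "higher" or "lower" on these arrays, and a log2 difference of at least 1 is called 2-fold. A gene "rose" or "fell" only where it passed the additive limma fit of genotype and TNF over all 4 arrays (Benjamini-Hochberg adjusted p under 0.05 over 11817 genes). That fit has 2 arrays for each treatment and 1 residual degree of freedom. A gene's own error comes only from a response that is unequal in the 2 genotypes. The SE given also draws on the other genes of like intensity (prior degrees of freedom 3.52), so it is not that inequality alone. The p-values of the fit therefore measure these arrays and not the spread between cultures. No degree of freedom is left to test a difference of responses. In a culture, fewer cells of a type and less RNA per cell cannot be told apart.

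Gch1 and Slc7a2 were at least 2-fold higher with TNF in both genotypes, but no promoter window was given for Slc7a2, Nos2 or Asl. The genes shown were picked after their values were seen, and whether a promoter bears on a response was not tested. The RefSeq promoters of Gch1 and of Pts and Spr, later enzymes of its pathway that stayed level, are shown side by side. Each is the 250 bases before the annotated start, 5′ to 3′ on the gene's strand (GRCm38.p6; all lie on the minus strand), with capitals on the matches to the searched motifs. The windows are chr14:47189414-47189663 for Gch1, chr9:50528657-50528906 for Pts and chr6:85137765-85138014 for Spr.
Gch1: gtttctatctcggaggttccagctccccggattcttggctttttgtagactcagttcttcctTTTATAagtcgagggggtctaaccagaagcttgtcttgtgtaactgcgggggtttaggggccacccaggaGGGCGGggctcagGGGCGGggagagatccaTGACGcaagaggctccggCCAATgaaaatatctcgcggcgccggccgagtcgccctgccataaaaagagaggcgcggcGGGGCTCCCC
Pts: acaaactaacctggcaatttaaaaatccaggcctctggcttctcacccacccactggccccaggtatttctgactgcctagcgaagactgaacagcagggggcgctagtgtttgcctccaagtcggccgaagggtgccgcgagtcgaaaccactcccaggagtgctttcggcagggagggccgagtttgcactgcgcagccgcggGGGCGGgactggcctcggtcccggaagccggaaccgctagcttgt
Spr: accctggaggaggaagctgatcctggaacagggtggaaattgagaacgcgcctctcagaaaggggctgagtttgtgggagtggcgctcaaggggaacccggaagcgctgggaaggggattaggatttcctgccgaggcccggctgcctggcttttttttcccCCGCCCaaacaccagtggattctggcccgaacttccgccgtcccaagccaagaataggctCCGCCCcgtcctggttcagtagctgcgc
The motifs, searched on both strands, were the kappaB consensus (the site that NF-kB factors bind), TGACG (the core of cyclic AMP response elements), CCAAT (a box that the factor NF-Y binds), the GC box GGGCGG, the TATA box TATAAA and TTCNNNGAA (the site of STAT factors). The TTCNNNGAA motif had no match in the 3 windows shown.

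The Gch1 window held a kappaB match in its last 10 bases, which match the consensus read on either strand and overlap no other match. It also held a TGACG match 88 to 84 bases and a CCAAT match 70 to 66 bases before the start, GGGCGG matches starting 118 and 105 bases before it, and a TATAAA match on the other strand 188 to 183 bases before it. The Pts window held only 1 GGGCGG match, and the Spr window 2. RefSeq windows were given for 5 of the 8 members. Of the other 2, that of Qdpr held 2 CCAAT and 1 GGGCGG match and that of Ass1 1 GGGCGG match. Among 32851 windows of 250 bases, 7.25% held the kappaB consensus, 17.8% TGACG, 33.9% CCAAT, 32.7% GGGCGG, 12.4% TATAAA and 7.02% TTCNNNGAA. These matches are letters in a window, and nothing in these data shows a factor bound there.

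**Figure D1:**
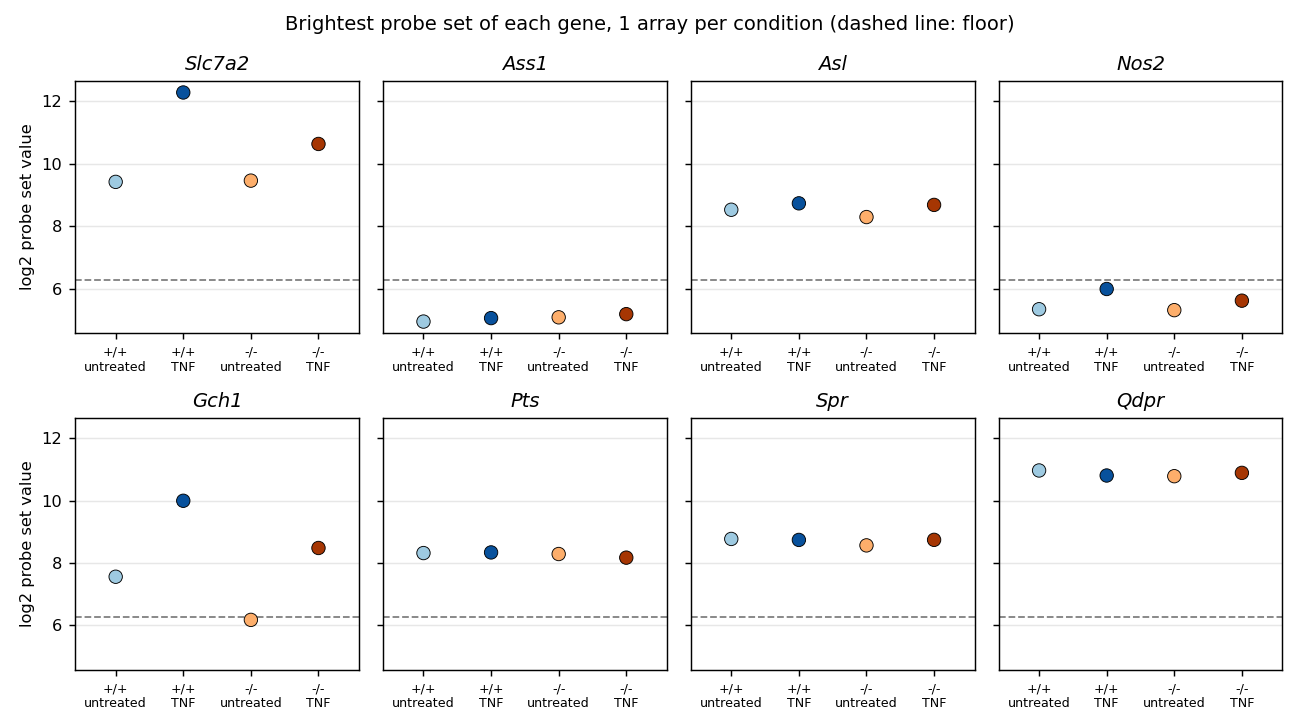
Log2 value of the brightest probe set of each of the 8 genes (y axis) on the 4 arrays (x axis; FAN +/+ in blue, FAN -/- in orange, dark with TNF), 1 point per array, with the floor of log2 6.27 as a dashed line. Only probe sets that name 1 gene are plotted. Slc7a2 and Gch1 are higher on both TNF arrays, Nos2 and Ass1 stay under the floor on all 4 arrays, and the others move by less than 0.44 log2. A brighter probe set that names Ass1 together with Gm5424 is not shown.

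Nos2, the synthase itself, lay under the floor on every array. The floor is a percentile of all values and not a detection call, so whether Nos2 was expressed cannot be told. Its 1 probe set gave log2 values of 5.34 in untreated and 5.99 in TNF-treated FAN +/+ cells, and of 5.32 and 5.62 in FAN -/- cells. As deposited, TNF minus untreated was 0.65 log2 in FAN +/+ and 0.30 in FAN -/- cells, which is not read as a response. All 4 values are in the lower part of the array's range, where no fold is given, and Nos2 did not enter the fit.

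Of the 6 members above the floor, 2 were at least 2-fold higher with TNF in FAN +/+ cells, where 2.2% of 12224 genes were, and the same 2 in FAN -/- cells, where 1.35% of genes were. They were Slc7a2 and Gch1. No member was 2-fold lower with TNF in either genotype, as 1.92% and 1.07% of genes were. The median response of the 6 members was 0.11 log2 in FAN +/+ and 0.28 in FAN -/- cells, against -0.03 and 0.01 over all 12224 genes. Both TNF arrays lay above both untreated arrays for 3 of the 6, Gch1, Slc7a2 and Asl, and for 18.3% of the 11817 genes fitted.

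Gch1 had log2 values of 7.56 in untreated and 9.99 in TNF-treated FAN +/+ cells, and of 6.18 and 8.48 in FAN -/- cells. The untreated FAN -/- value lies just under the floor and the other 3 above it. Gch1 was thus 5.40-fold higher with TNF in FAN +/+ cells and at least 4.64-fold higher in FAN -/- cells. The FAN +/+ response was the 39th highest of 12224 genes, and the FAN -/- one, a bound, has no exact rank. That bound falls to 0.64 log2 with the floor at the 70th percentile and to 1.38 log2 with the mean of its probe sets. In the additive fit it rose with TNF by 2.32 ± 0.12 log2 (SE, limma adjusted p = 0.0098), a call that 1.57% of the genes fitted shared. Gch1 also had a genotype difference of -1.40 ± 0.12 log2 (SE, limma adjusted p = 0.014), and 3.67% of the genes fitted fell likewise. The TNF call is lost with the floor at the 70th percentile (adjusted p = 0.096) and without the genotype term (0.602), and the adjusted p ranged from 5.63e-05 to 0.602 over 8 alternatives.

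On its brighter probe set Gch1 was lower in FAN -/- cells at both treatments, by at least 2.45-fold without TNF and by 2.85-fold with it. The untreated difference, a bound of -1.29 log2, becomes -0.42 log2 with the mean of probe sets and 0.00 with the floor at the 70th percentile, which covers both untreated values. Gch1 was the only member 2-fold apart between untreated genotypes, where 2.89% of genes were lower and 1.45% higher. With TNF it was 1 of 2 members 2-fold lower, Slc7a2 being the other, where 2.64% of genes were lower and 1.55% higher. The order of the 4 levels was FAN +/+ with TNF, FAN -/- with TNF, FAN +/+ untreated and FAN -/- untreated. Whether neighbours in this order differ beyond the spread of a condition cannot be said from 1 array each. The 2 responses differed by -0.13 log2 as deposited (FAN -/- minus FAN +/+), but the untreated FAN -/- value is under the floor, so their equality cannot be read from this. With the floor at the 70th percentile the difference was -1.51 log2, and with the mean of probe sets -1.22 log2. Each array enters both a TNF response and a genotype difference, so these comparisons are not independent of each other.

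A second, dimmer Gch1 probe set moved the same way. Its log2 values were 5.82 and 8.58 in FAN +/+ and 4.81 and 6.81 in FAN -/- cells. As deposited this is 2.76 log2 with TNF in FAN +/+ and 2.00 in FAN -/- cells, but both untreated values lie under the floor, so only bounds of at least 4.97-fold and 1.46-fold hold. Its responses differed by -0.76 log2 as deposited, more than those of the brighter probe set. Averaging both probe sets before the fit keeps the TNF call (1.99 ± 0.30 log2, SE, limma adjusted p = 0.048) and loses the genotype call (-1.03 ± 0.30 log2, SE, adjusted p = 0.129; 0.00043 to 0.640 over 8 alternatives).

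Slc7a2, the arginine transporter, had log2 values of 9.42 untreated and 12.29 with TNF in FAN +/+ cells, and of 9.46 and 10.64 in FAN -/- cells. The 2 untreated arrays were level, and the TNF-treated FAN +/+ array stood above all others. Slc7a2 was 7.28-fold higher with TNF in FAN +/+ cells, the 27th highest of 12224 genes, and 2.26-fold higher in FAN -/- cells, the 131st highest. In the additive fit the TNF effect was 2.02 ± 0.41 log2 (SE) and did not pass (limma adjusted p = 0.095). It passed with the floor at the 70th percentile (adjusted p = 0.047) and with median centring (0.0046), within a range up to 0.579 over 8 alternatives.

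Slc7a2 is the 1 member whose response differed by at least 2-fold between genotypes as reported, and Gch1 joins it with the floor at the 70th percentile or the mean of probe sets. Of all genes 0.818% did so in this direction and 0.794% in the other. Its response differed by -1.69 log2 (FAN -/- minus FAN +/+), the 24th lowest of 12224 differences. With TNF it was 3.14-fold lower in FAN -/- than in FAN +/+ cells, and untreated it was level (1.03-fold higher, or -0.04 log2 with median centring). The additive genotype effect of -0.80 ± 0.41 log2 (SE) did not pass (limma adjusted p = 0.311).

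All 4 Slc7a2 probe sets gave the same order of responses. As deposited, their TNF response in FAN +/+ cells was 2.86, 3.14, 3.39 and 2.87 log2 from the brightest to the dimmest, and in FAN -/- cells 1.17, 1.31, 1.14 and 0.65. The response in FAN -/- cells was the smaller one on each, with differences of -1.69, -1.83, -2.25 and -2.21 log2. The dimmest had only its TNF-treated FAN +/+ value above the floor. Probe sets of 1 gene share the same 4 RNA samples and are no replicates.

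**Figure D2:**
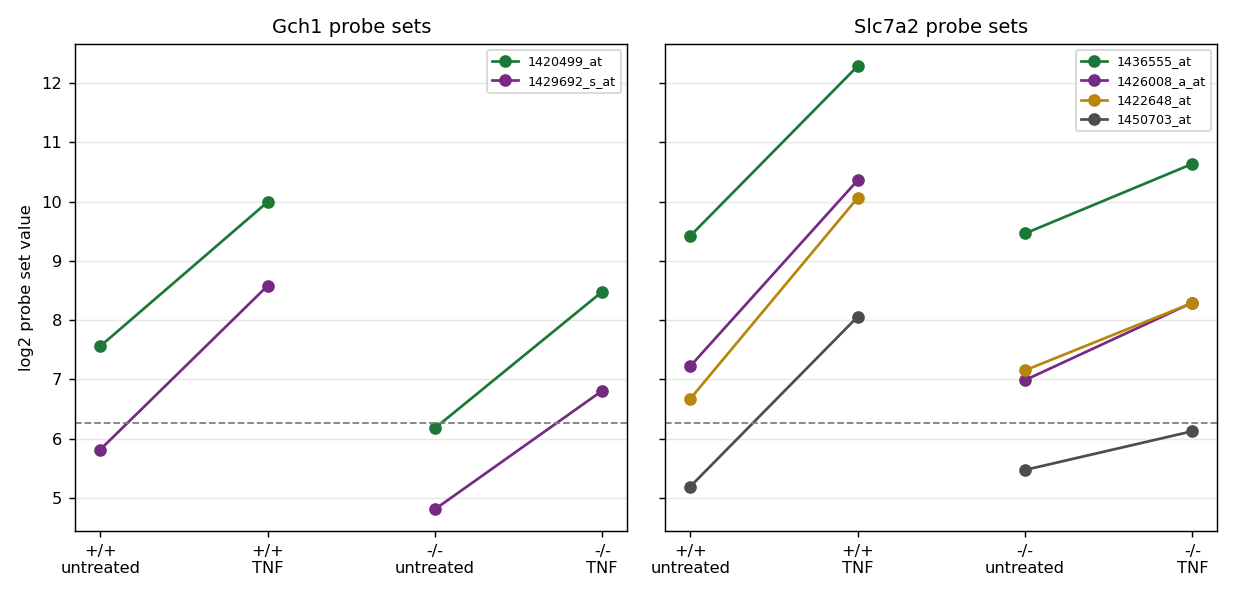
Log2 values (y axis) of the 2 probe sets of Gch1 (left) and the 4 of Slc7a2 (right) on the 4 arrays (x axis), with a line from untreated to TNF within each genotype and the floor dashed. The Gch1 lines start lower in FAN -/- cells, where both untreated values are under the floor, and all Slc7a2 lines are flatter in FAN -/- cells.

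The remaining tetrahydrobiopterin enzymes stayed close to level, and none of the 3 passed the limma fit or had an unadjusted p under 0.05. Pts had log2 values of 8.32 and 8.34 in FAN +/+ and 8.29 and 8.17 in FAN -/- cells, untreated first. Spr had 8.77 and 8.74, then 8.56 and 8.74. Qdpr had 10.96 and 10.80, then 10.78 and 10.89 on its brighter probe set. Over all 4 arrays these values span 0.17, 0.21 and 0.18 log2, while those of Gch1 span 3.81. The fitted TNF effects were -0.05 ± 0.12 log2 for Pts, 0.07 ± 0.12 for Spr and -0.03 ± 0.11 for Qdpr (SE, limma adjusted p = 0.86, 0.79 and 0.92). A second Qdpr probe set had 9.90 and 9.73 in FAN +/+ and 9.63 and 9.67 in FAN -/- cells. A second Pts probe set was under the floor on every array, at 4.37 to 4.75.

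Of the arginine-rebuilding enzymes, Asl had log2 values of 8.53 and 8.74 in FAN +/+ and 8.30 and 8.69 in FAN -/- cells, untreated first. Both TNF values lay above both untreated ones, by 1.15-fold and 1.31-fold, and the fitted effect did not pass (0.30 ± 0.12 log2, SE, limma adjusted p = 0.291). The 1 probe set that names Ass1 alone lay under the floor on every array, at 4.95 and 5.06 in FAN +/+ and 5.09 and 5.19 in FAN -/- cells, so it gives no fold. A much brighter probe set names Ass1 together with Gm5424, which RefSeq lists as a transcribed pseudogene, and its signal cannot be assigned to either. It had log2 values of 10.19 and 11.17 in FAN +/+ and 10.38 and 11.40 in FAN -/- cells. That is 1.98-fold and 2.02-fold higher with TNF, close to equal in both genotypes, and it was not part of the fit.

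**Figure D3:**
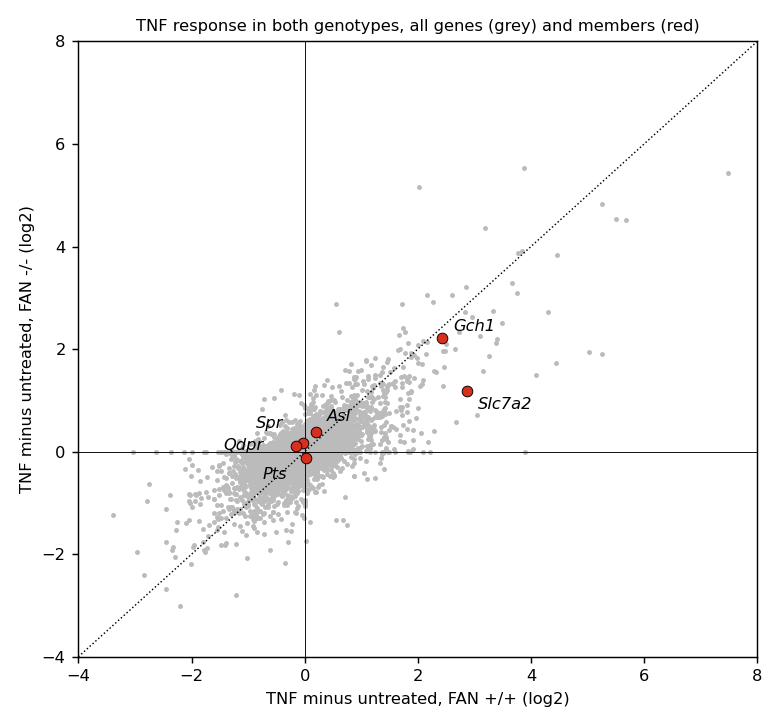
TNF minus untreated log2 difference in FAN +/+ (x axis) and FAN -/- cells (y axis), values under the floor raised to it, for 12224 genes in grey and the 6 members above the floor in red, with the line of equal response dotted. Gch1 lies at 2.43 and 2.21 (the latter a lower bound), Slc7a2 well below it at 2.86 and 1.17, and Pts, Spr, Qdpr and Asl near the origin.

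Gene by gene over the 4 arrays, the pattern most like that of Gch1 was that of Dram1, a regulator of autophagy, followed by Ifit1, an interferon-induced gene, and Col5a3, a collagen chain. Likeness is the Euclidean distance between mean-centred log2 values on the 4 arrays among 12223 other genes, and was 0.23, 0.50 and 0.51. Dram1 responded to TNF by 2.66 log2 in FAN +/+ and 2.00 in FAN -/- cells, and lay lower in FAN -/- cells at both treatments (-1.01 and -1.66 log2). Most like Slc7a2 were Sod2, the mitochondrial superoxide dismutase (distance 0.30), Parp14 (0.52) and the interferon-inducible GTPase gene Gbp7 (0.60). Sod2 had log2 values of 10.44 and 12.88 in FAN +/+ and 10.18 and 11.45 in FAN -/- cells, like Slc7a2 with a smaller response in FAN -/- cells. With 4 arrays, many genes lie close to any pattern.

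The other genes of the pathway were taken from 8 lists with 46 genes. Of these, 40 had a probe set naming only them, 31 lay above the floor and entered the fit, and the other 6 are not analysed here. With TNF 3 of the 31 rose and 0 fell in the limma fit, where 1.57% and 1.14% of all genes fitted did. At an unadjusted limma p under 0.05, 6 were higher and 4 lower with TNF, where 969 and 1250 of all 11817 genes fitted were. Between genotypes 3 were higher and 1 lower in FAN -/- cells, where 2.94% and 3.67% of all genes fitted were. At an unadjusted limma p under 0.05, 9 were higher and 4 lower in FAN -/- cells, where 1325 and 1574 of the 11817 were. The unadjusted counts given for single lists are to be read against these counts over all genes.

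The 3 genes that rose with TNF all came from 1 list, of transcription factors known at the Nos2 and Gch1 genes, with 4 genes fitted. In each of the other pathway lists 0 genes rose. These factors are regulators and not enzymes or transporters of the pathway, and the lists were chosen with earlier results of these data known. Irf1, which binds interferon-response elements, rose by 1.64 ± 0.12 log2 (SE, limma adjusted p = 0.014), from 9.79 to 11.27 in FAN +/+ and from 9.44 to 11.25 in FAN -/- cells. The NF-kB subunit gene Relb rose by 2.05 ± 0.17 log2 (SE, limma adjusted p = 0.017), from 8.70 to 10.48 and from 7.64 to 9.97. The NF-kB subunit gene Rela rose by 0.75 ± 0.09 log2 (SE, limma adjusted p = 0.036). Cebpb, a leucine zipper factor, had an effect of 0.52 log2 that did not pass (adjusted p = 0.054), and it was lower in FAN -/- cells (-0.52 ± 0.08 log2, SE, limma adjusted p = 0.035). The list's median over 4 genes was 1.16 log2 in FAN +/+ and 1.23 in FAN -/- cells.

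Of 6 measured genes on which nitric oxide acts or that end its action, 2 were higher in FAN -/- cells in the fit. Of all genes fitted 2.94% were. Prkg1, the kinase that cyclic GMP activates, was higher in FAN -/- cells by 1.13 ± 0.14 log2 (SE, limma adjusted p = 0.024), with log2 values of 9.89 and 9.24 in FAN +/+ and 11.23 and 10.15 in FAN -/- cells. Gucy1a2, a subunit of the guanylate cyclase that senses nitric oxide, was higher by 1.20 ± 0.15 log2 (SE, limma adjusted p = 0.026) on its brightest probe set. When its probe sets were averaged, the difference with TNF was 0.00 because both values lay at the floor. Gucy1a2 then had too few arrays above the floor to enter the fit. With the genotype term alone both calls were lost (limma adjusted p = 0.383 for Prkg1 and 0.370 for Gucy1a2). Pde5a, which breaks down cyclic GMP, had 8.19 and 7.03 in FAN +/+ and 8.75 and 8.03 in FAN -/- cells. Its genotype effect of 0.78 log2 did not pass (adjusted p = 0.061). With TNF all 3 had lower values in both genotypes, by 0.65 to 1.16 log2, and none passed (adjusted p = 0.062 to 0.075). The Gucy1a2 value in FAN +/+ cells, -1.08 log2 on its brightest probe set, was 0.00 with its probe sets averaged and -0.46 with the floor at the 70th percentile, and the FAN +/+ value of Pde5a was -0.34 with that floor. Of the list's 7 genes 6 lay above the floor, with a median TNF response of -0.45 in FAN +/+ and -0.47 in FAN -/- cells.

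Among the other tetrahydrobiopterin enzymes, 4 of 6 were measured and 0 passed the limma fit for either effect (0 for TNF and 1 for genotype at an unadjusted p under 0.05). Gchfr, whose protein mediates feedback inhibition of GTP cyclohydrolase, had log2 values of 7.34 and 6.51 in FAN +/+ and 6.37 and 6.62 in FAN -/- cells. Its responses differed by 1.08 log2, more negative in FAN +/+ cells. Of 5 genes of arginine transport 0 passed the limma fit (1 for TNF and 3 for genotype at an unadjusted p under 0.05). Slc7a7, which exports arginine, had 6.89 and 7.07 in FAN +/+ and 6.74 and 8.01 in FAN -/- cells, a response 1.10 log2 larger in FAN -/- cells and so the opposite of that of Slc7a2. Both Gchfr and Slc7a7 lie near the floor, and raising it to the 70th percentile takes their differences to 0.00 and 0.17 log2.

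Of 6 genes of arginine use, 3 were above the floor, and Odc1, the ornithine decarboxylase of polyamine synthesis, was higher in FAN -/- cells by 0.71 ± 0.10 log2 (SE, limma adjusted p = 0.032). The arginases Arg1 and Arg2, which compete for arginine, lay under the floor on every array, so no fold is given. As deposited, untreated first, Arg2 had 4.23 and 6.02 in FAN +/+ and 4.80 and 4.90 in FAN -/- cells. Arg1 had 3.77 and 4.19, then 4.86 and 4.79. The synthase list had 4 of 7 genes above the floor with 0 past the limma fit (1 for TNF and 0 for genotype at an unadjusted p under 0.05). The endothelial synthase gene Nos3 lay under the floor on every array, at 5.05 to 5.45, and the neuronal one, Nos1, had log2 values of 6.94 and 7.59 in FAN +/+ and 7.51 and 7.69 in FAN -/- cells. All 4 methylarginine genes were above the floor and 0 passed the limma fit (0 for TNF and 1 for genotype at an unadjusted p under 0.05). Of the enzymes that use tetrahydrobiopterin otherwise, 1 of 5, Th, was above the floor, and it did not pass.

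**Figure D4:**
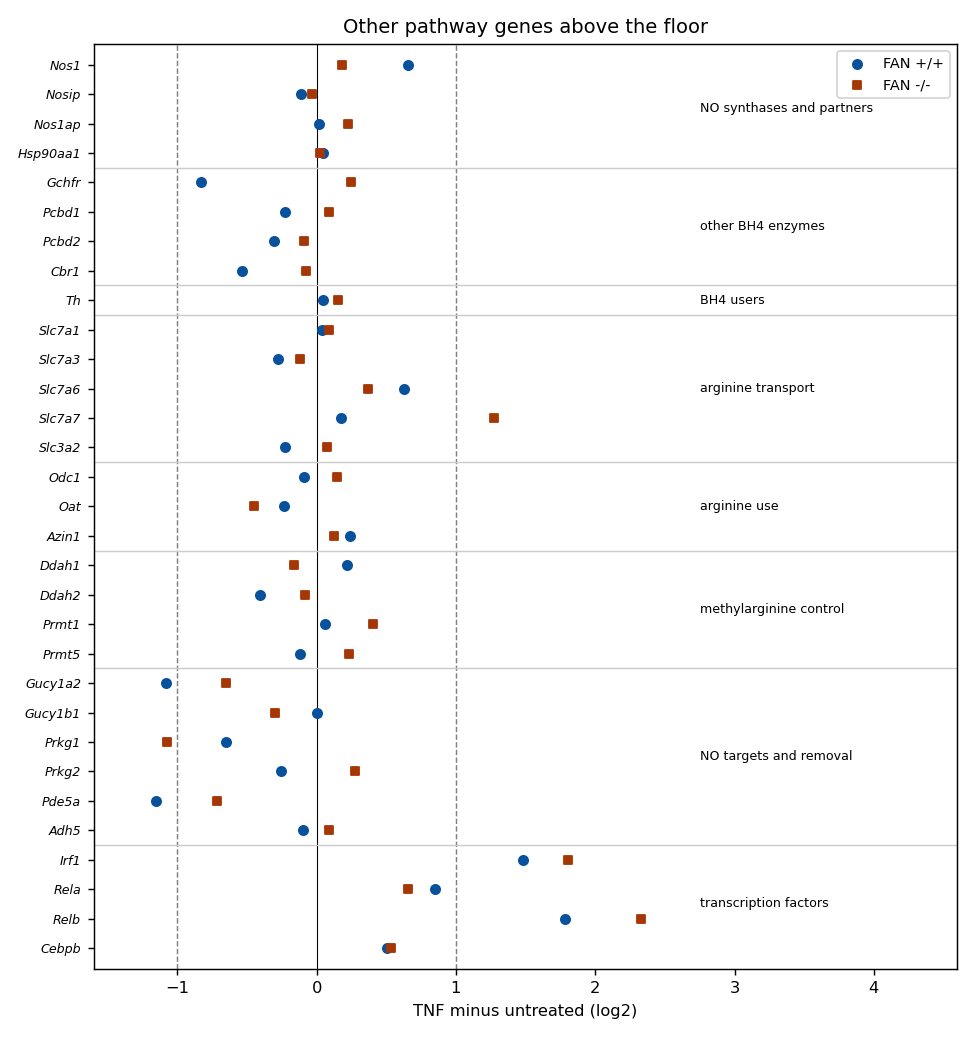
TNF minus untreated log2 difference (x axis) for the 31 other pathway genes above the floor (y axis), grouped by list, with circles for FAN +/+ and squares for FAN -/- cells and dashed lines at a 2-fold difference. Irf1 and Relb exceed 2-fold in both genotypes, Slc7a7 does so in FAN -/- cells, and Gucy1a2 and Pde5a are 2-fold lower in FAN +/+ and Prkg1 in FAN -/- cells.

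Macrophages also express Nos2, Gch1 and Slc7a2, so their markers were measured too. Of 8, Csf1r, Lyz2 and Cd14 lay above the floor, while Ptprc, Cd68, Adgre1, Itgam and Aif1 lay under it on every array. Their summed signal was 665 in untreated and 1112 in TNF-treated FAN +/+ cells and 1425 and 965 in FAN -/- cells. Lyz2 was at 7.89 and 8.44 in FAN +/+ and 9.60 and 8.28 in FAN -/- cells, Csf1r at 6.60 and 7.68, then 7.90 and 7.71, and Cd14 at 7.40 and 8.58, then 7.73 and 8.09. Csf1r and Cd14 were thus 2-fold higher with TNF in FAN +/+ cells, as Gch1, Slc7a2 and 2.2% of all genes were. In FAN -/- cells Cd14 was also higher with TNF, while Csf1r (-0.19 log2) and Lyz2 (-1.33 log2) were lower. Untreated, Csf1r and Lyz2 were 2.46-fold and 3.28-fold higher in FAN -/- cells, where Gch1 was lower and Slc7a2 level. None of the 3 markers passed the limma fit, and the part of macrophages in the results was not tested. Of the endothelial markers 2 of 5 (Kdr and Tek), of the epithelial ones 2 of 4 (Epcam and Krt8) and of the smooth muscle ones 4 of 4 lay above the floor. In the fit Cnn1 and Myh11 of the last group fell with TNF and Des was higher in FAN -/- cells.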

How the data were processed

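Affymetrix arrays for the mouse genome measured total RNA of 4 conditions, 1 array each. The authors deposited 1 value per probe set, which its range of 2.79 to 14.4 shows to be on a log2 scale. MAS5 was used, per the submitters' processing notes, without a version. The arrays have similar medians and ranges. How probes were summarised and arrays scaled beyond this entry, and what this did to low values, is unknown. The platform table (2016 annotation) names 1 gene for 34945 probe sets, several for 932 and none for 9160, and 64 are controls. Entrez identifiers of 34741 matched RefSeq (GRCm38.p6).

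Values under the 50th percentile of all values were raised to that floor. Each gene took its brightest probe set by mean over the arrays. The 12224 genes above the floor on at least 1 array were compared by difference. The 11817 above it on at least 2 entered a limma fit with additive terms for genotype and TNF (limma 3.58.1, R 4.3.3, eBayes with intensity trend, prior degrees of freedom 3.52). The fit was also run on data simulated from its own variance prior with additive TNF effects. Such a run cannot show how the fit behaves where responses differ between genotypes. Other scripts used Python 3.11.15. Alternatives were other floors or none, the mean of probe sets, median centring, quantile normalization, 1 model term, and no intensity trend.

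The members and lists were chosen with earlier results of these data known. All members are named. From the 8 pathway lists, genes at least 2-fold apart or past the fit are named, up to 4 per list. Gm5424, Nos1, Nos3, Arg1, Arg2 and Th were added after their values were seen. Markers of macrophages, fibroblasts, endothelium, epithelium and smooth muscle were fixed likewise. The number of arrays limits the precision.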

Additional observations from a re-analysis of the deposited data

Results flagged for a closer look

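The 3 remaining tetrahydrobiopterin enzymes had TNF responses of opposite sign in the 2 genotypes, 1 array against 1 each, and the difference was not tested. The response of Pts was 0.020 log2 in FAN +/+ and -0.12 in FAN -/- cells. That of Spr was -0.031 in FAN +/+ and 0.18 in FAN -/- cells. That of Qdpr was -0.16 in FAN +/+ and 0.11 in FAN -/- cells. The signs were no longer opposite for Pts with median centring (-0.035 in FAN +/+ and -0.12 in FAN -/- cells) or for Spr with quantile normalization (0.021 and 0.16), while those of Qdpr stayed opposite under all 6 alternatives for single-array differences. Opposite signs were found for 3 of the 6 members above the floor and for 30.9% of 12224 genes. The 12224 include genes with a response of 0 because both values were raised to the floor, which cannot count as opposite. Pts, Spr and Qdpr lay above the floor on all 4 arrays, so for them this share is too low a comparison.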

How the results depend on the processing

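Of 336 recomputed member values, 321 kept their side of the threshold or, for a difference between single arrays, stayed within 1.5-fold of the reported one. Of these, 7 changed sign (Pts, Spr and Slc7a2), each from a reported value of at most 0.048 log2, and 0 values that had passed or were 2-fold apart reversed. Many of the 321 could not move. Nos2 and Ass1 were raised to the floor under most alternatives, and a difference between values above every floor does not depend on it. The count therefore says little about stability. The exceptions to the 321 concern Gch1, Slc7a2 and, with a floor at the 30th percentile or none, Nos2 (0.65 log2 with TNF in FAN +/+ cells). With the floor at the 70th percentile 1 member was 2-fold apart with TNF in FAN -/- cells, 0 between untreated genotypes and 2 in the difference of responses, since the floor then covers both untreated Gch1 values. With the mean of probe sets the last 2 counts were 0 and 2. The count of members 2-fold apart was the same under the other alternatives.

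The TNF call counts over all genes were 321 as reported, 196 with no floor, 923 with median centring (43.9% of them higher against 57.9%) and 0 with the TNF term alone (at an unadjusted p under 0.05, limma gave 450 higher and 434 lower). The genotype counts were 781, 1512 with median centring and 10 with the genotype term alone, and the cause of the larger counts was not tested. The genotype entries of the labels give the grouping of the TNF term alone. For Gch1 the adjusted p was then 0.602 for TNF, and 0.640 for genotype with that term alone. With the floor at the 70th percentile they were 0.096 and 0.241. Of 266 recomputed values of Nsmaf and 10 pathway genes, 228 held by the same measure and with the same limit, 1 of them with a changed sign (the TNF effect of Odc1, 0.027 against -0.0041 log2 with median centring). Calls of Rela, Cebpb and Odc1 lie near the threshold: without a floor their adjusted p was 0.068, 0.057 (genotype) and 0.054. The TNF effects of Prkg1, Gucy1a2 and Pde5a passed with median centring (adjusted p = 0.0050, 0.013 and 0.0086). No paired analysis was possible because each condition has 1 array and the labels give no replicate numbers. Leaving out an array leaves no residual degree of freedom, and 1 array per condition and the unknown scaling limit all values.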
